A study of Mus musculus with 6 samples.

Results

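Cyclins and cyclin-dependent kinases (CDKs) were taken as the protein-coding genes whose symbol is Ccn, a letter and an optional number, or Cdk and a number. This rule, which uses no measured value, found 43 genes, 25 cyclins and 18 kinases, of 21884 protein-coding genes and 55565 genes listed. The matricellular genes Ccn1 to Ccn6 carry a similar symbol but are not cyclins and were not included, and Cdk3, which matches by name, is annotated as a polymorphic pseudogene in the mouse. RNA-seq compared mouse embryonic fibroblasts (MEFs) of 2 genotypes, wild type (WT) and Mcm8 knockout (KO), with 3 libraries each. MCM8 is a helicase of the minichromosome maintenance family that acts in homologous recombination, and the comparison asked which transcripts differ when it is lost. The KO allele lacks exon 7 of Mcm8, removed by CRISPR/Cas9, which shifts the reading frame. Fibroblasts of both genotypes came from the trunk of embryonic day 13.5 embryos of a mixed C57BL/6J and ICR background, from crosses of heterozygous parents, and both were immortalised with a lentivirus carrying the SV40 T antigen gene and selected with puromycin. No drug or other treatment set the groups apart. The study calls the libraries biological repeats, and the sources used here do not say whether each came from another embryo, so that p-values measure the spread between these libraries. In edgeR that spread was taken from the trend shared by genes of like abundance, not from each gene alone.

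Cyclins bind and activate CDKs. D-type cyclins with Cdk4 and Cdk6 start the phosphorylation of the retinoblastoma proteins in G1, cyclins E and A with Cdk2 carry cells into and through S phase, and cyclins A and B with Cdk1 drive mitosis. A separate set, among them Cdk7, Cdk8, Cdk9, Cdk12 and Cdk13 with cyclins H, C, T and K, phosphorylates RNA polymerase II or its cofactors and controls transcription. Large T antigen binds the retinoblastoma proteins and p53, a limit of these cells as a model of the D-type cyclin pathway that both genotypes share. Gene counts in bulk RNA cannot tell fewer transcribing cells from less RNA per cell, and they say nothing about kinase activity or protein level.

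The libraries held 12722979 to 21022755 counts in genes, and the 43 members took 0.381 to 0.402% of them. Library WT1 stood apart from the other WT libraries. The chi-square per degree of freedom between replicates was at least 13.9 for WT1 against WT2 or WT3, 4.54 for WT2 against WT3 and 2.67 to 3.12 between KO libraries. Mcm8 had 176, 233 and 238 counts in WT and 89, 74 and 66 counts in KO, and fell to 29.6% of its WT level (log2 fold change −1.75, SE 0.16, adjusted p = 4.45e-26 in edgeR, 9.14e-07 in limma-voom and 2.44e-06 in edgeR with the filterByExpr filter). These counts cover all exons, so they do not test the deletion itself. Of 10 fibroblast markers, summed at 3328 to 3728 FPKM (fragments per kilobase of transcript, scaled to library size) in WT and 3615 to 3732 FPKM in KO, 3 rose and 3 fell in edgeR, with Thy1 (log2 fold change −1.03) and Pdgfrb (−0.74) among the lower. DESeq2 called 5 of the 10 fibroblast markers and limma-voom 7. Summed epithelial markers stood at 2.09 to 3.12 FPKM in WT and 7.36 to 8.01 in KO (3 of 8 tested rose), mesothelial markers at 0.936 to 1.11 and 14.0 to 15.8 (1 of 4, Msln), and neural and glial markers at 32.6 to 35.7 and 49.8 to 53.6 (3 of 5). Endothelial, blood cell, skeletal muscle and germ cell markers summed to at most 2.34 FPKM in any library, and none of them passed in edgeR or DESeq2, while limma-voom called the endothelial marker Tek. Without WT2, the endothelial marker Kdr passed in edgeR (adjusted p = 0.0385). Xist stood at 940 to 1359 CPM (counts scaled to equal library size) in WT and 474 to 494 CPM in KO, while summed Y-linked genes stood at 24.3 to 25.9 and 108 to 126 CPM. The genotypes therefore differed in sex-linked RNA and in marker levels as well as in Mcm8, and the part of these differences in the results was not tested. Among the members, Cdk16 and Ccnb3 are X-linked, and Cdk9, 100.1 Mb away, is the 1 member on the chromosome that carries Mcm8.

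Promoter windows of 300 bases (250 before to 50 after the transcription start, RefSeq, build GRCm38.p6) were at hand for 34 of the 43 members, in 36 windows. Those of Ccng1 and Cdk14, which were lower in KO, are shown beside those of Cdk1 and Ccnb2, mitotic genes whose levels overlapped between genotypes. Capitals mark 4 motifs on either strand: the CCAAT box (CCAAT), the GC box (GGGCGG), the cell-cycle homology region (CHR; TTTGAA or TTCGAA) and the E2F motif (TTTCCCGC, TTTCGCGC, TTTGCCGC or TTTGGCGC). Each window lies on the minus strand and is written 5′ to 3′, at chr11:40755237-40755536 (Ccng1), chr5:5380202-5380501 (Cdk14), chr10:69352863-69353162 (Cdk1) and chr9:70421505-70421804 (Ccnb2).
Ccng1: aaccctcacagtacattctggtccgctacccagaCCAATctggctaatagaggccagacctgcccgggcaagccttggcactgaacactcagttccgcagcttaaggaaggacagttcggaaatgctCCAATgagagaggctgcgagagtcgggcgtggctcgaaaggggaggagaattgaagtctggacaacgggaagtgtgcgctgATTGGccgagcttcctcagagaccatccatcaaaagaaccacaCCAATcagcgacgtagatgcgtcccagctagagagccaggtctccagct
Cdk14: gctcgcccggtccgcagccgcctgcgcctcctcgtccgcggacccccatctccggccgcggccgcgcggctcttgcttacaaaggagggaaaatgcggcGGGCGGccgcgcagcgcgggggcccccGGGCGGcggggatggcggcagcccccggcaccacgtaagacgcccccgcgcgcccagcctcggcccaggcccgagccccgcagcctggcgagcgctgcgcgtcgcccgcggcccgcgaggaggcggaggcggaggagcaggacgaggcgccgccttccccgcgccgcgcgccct
Cdk1: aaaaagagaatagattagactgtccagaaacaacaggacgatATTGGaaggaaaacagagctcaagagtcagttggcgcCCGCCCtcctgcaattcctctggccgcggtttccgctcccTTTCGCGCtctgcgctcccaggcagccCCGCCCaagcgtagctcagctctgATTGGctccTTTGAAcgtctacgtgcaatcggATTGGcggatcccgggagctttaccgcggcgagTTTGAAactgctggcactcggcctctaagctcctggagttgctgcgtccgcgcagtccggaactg
Ccnb2: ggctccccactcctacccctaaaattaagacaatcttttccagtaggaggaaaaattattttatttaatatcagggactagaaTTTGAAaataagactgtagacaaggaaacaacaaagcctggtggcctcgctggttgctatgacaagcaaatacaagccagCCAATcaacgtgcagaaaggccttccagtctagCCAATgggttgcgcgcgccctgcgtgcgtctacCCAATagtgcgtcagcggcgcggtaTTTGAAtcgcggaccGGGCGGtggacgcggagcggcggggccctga
Cdk1 and Ccnb2 each held 3 CCAAT boxes and 2 CHR matches, and Cdk1 also held 1 E2F match. The window of Ccnb1, also mitotic, held 2 CCAAT boxes and no CHR match, while that of Ccni held 2 CHR matches. Ccng1 held 4 CCAAT boxes and neither a GC box nor a CHR match, and Cdk14 held 2 GC boxes and none of the other motifs. Over all 32851 RefSeq windows of this length, 37.4% held a CCAAT box, 35.7% a GC box, 19.2% a CHR match and 2.27% an E2F match, and of the members' 36 windows 17, 29, 5 and 2 did. A match is a string of letters and not a measured binding site. Windows of Ccnd1, Ccnd2, Ccnh and Cdk17 were not used here.

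**Figure D1:**
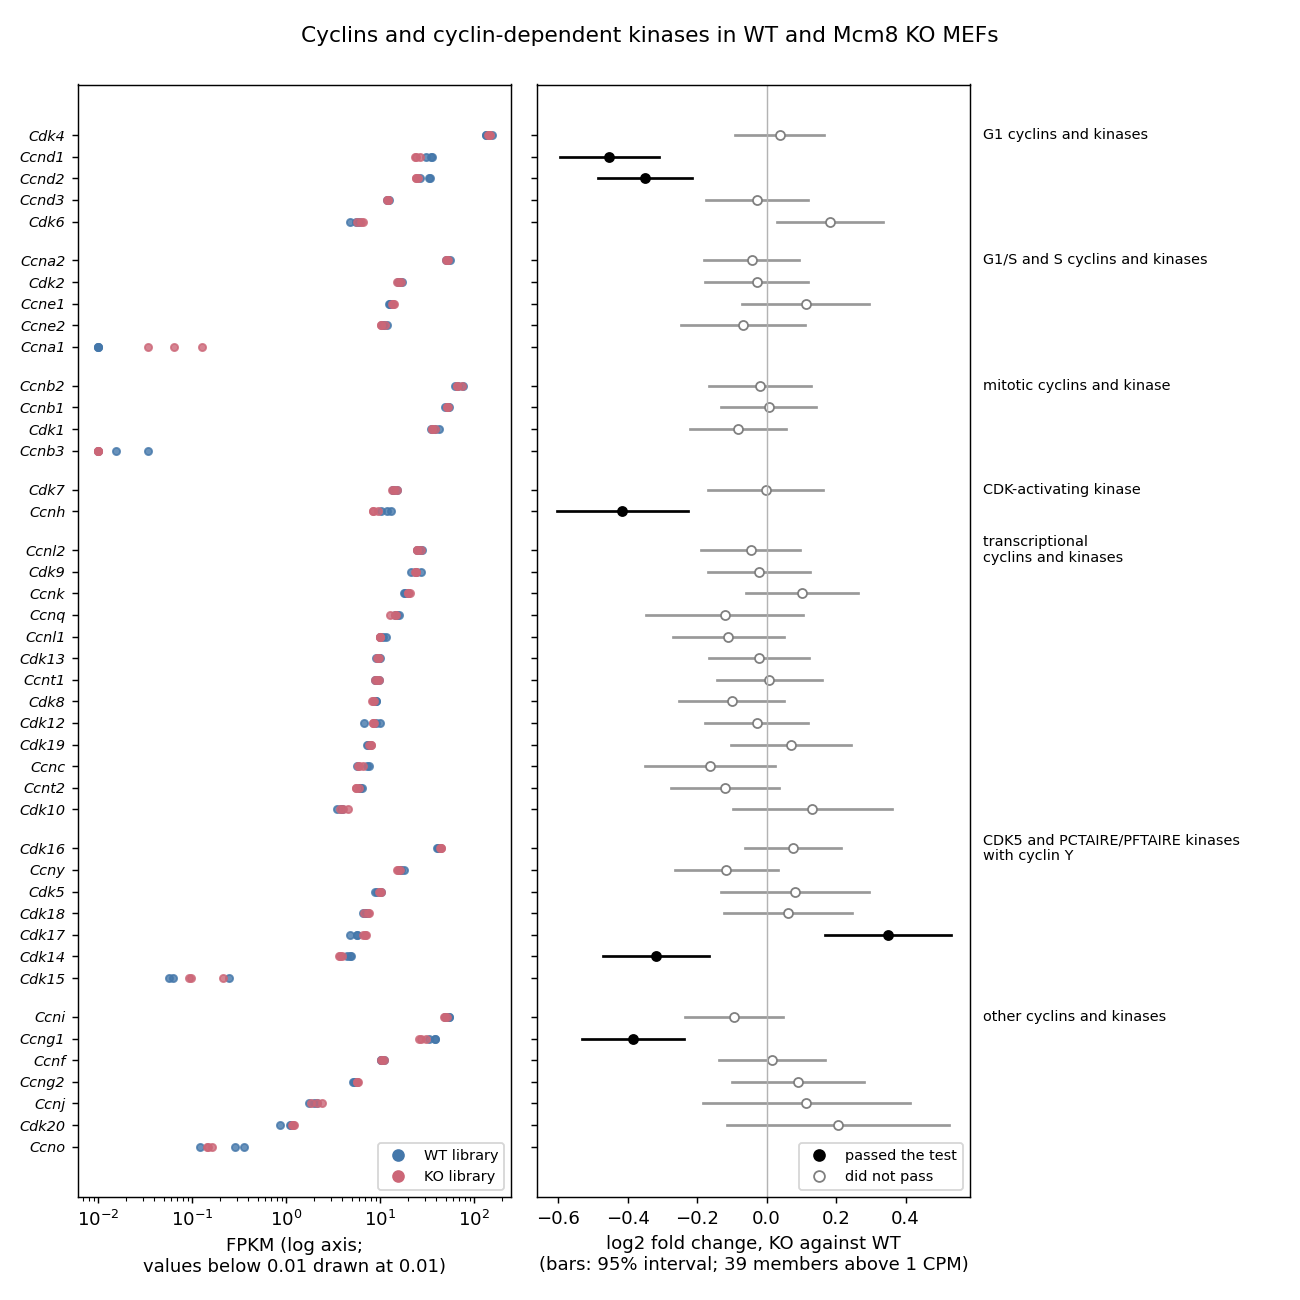
Levels and differences of the 43 cyclins and CDKs, grouped by role. The left panel gives FPKM on a log axis, with 1 point for each library (3 WT, 3 KO), and the right panel the log2 fold change of KO against WT with its 95% interval for the 39 members above 1 CPM. The 6 filled points passed the test, 5 to the left of 0 and Cdk17 to the right, and they span log2 fold changes from −0.45 to 0.35.

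Most of the family was transcribed. The mean over the 6 libraries exceeded 1 FPKM for 39 members and 10 FPKM for 23. Cdk4 was the most abundant, at 143 FPKM, followed by Ccnb2 (68.9 FPKM) and then by Ccnb1, Ccna2 and Ccni, whose levels overlapped between libraries. At or below 1 FPKM lay Ccna1 and Ccnb3, cyclins known from the germ line, Ccno, known from multiciliated cells, and Cdk15. Ccnb3 had 2, 1 and 0 counts in WT and 0 in every KO library, so that no level above the limit of 3 counts per library was seen. Ccna1 had no count in WT and 5, 2 and 1 counts in KO (adjusted p = 0.236), too few for a fold change.

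Of the 43 members, 6 (14.0%) differed between genotypes at an adjusted p below 0.05 in edgeR's quasi-likelihood test, against 9.00% of the 26898 genes tested. One was higher in KO, where the share over all genes was 4.97%, and 5 were lower, where it was 4.03%. Calls depend on abundance, and among genes with a mean of at least 10 CPM, 6 of 37 members (16.2%) and 17.1% of 9378 genes passed. The family as a whole thus gave calls at about the rate of genes of its abundance. The median log2 fold change of the members was −0.02, beside 0.01 over all genes tested. By the stricter rule that also asks for a change of over 2-fold, 0 members and 2.42% of all genes were called (1.75% higher, 0.665% lower), the count was also 0 with DESeq2 and limma-voom, and 1 member, Ccna1, passed both an unadjusted p of 0.05 and the 2-fold limit. WT and KO libraries did not overlap for 14 members (32.6%), against 21.6% of all genes and 35.8% of those with at least 10 CPM. The cyclins Ccnd1, Ccnd2, Ccng1 and Ccnh and the kinase Cdk14 fell, and Cdk17 rose.

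**Figure D2:**
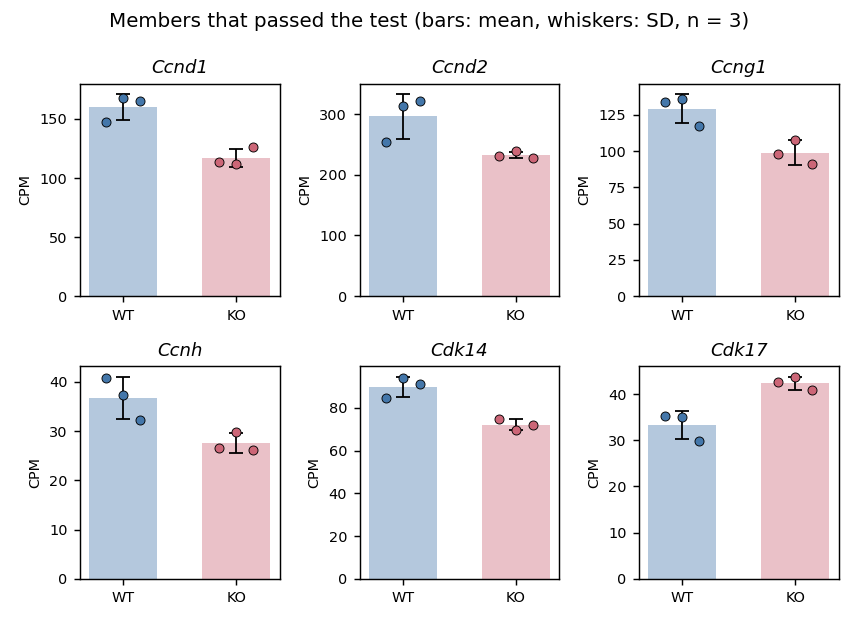
CPM of the 6 members that passed the test, in the WT (blue) and KO (red) libraries. Points are libraries, bars are means and whiskers are SD (n = 3), and in each panel the KO points lie wholly on 1 side of the WT points.

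The D-type cyclins are the regulatory subunits that couple growth signals to Cdk4 and Cdk6. Ccnd1 (ENSMUSG00000070348; GRCm39 chromosome 7, 144483668 to 144493662) had 147, 168 and 165 CPM in the WT libraries and 114, 112 and 126 CPM in the KO libraries. The highest KO library remained below the lowest WT library. The means were 160 ± 11.2 and 117 ± 7.75 CPM (SD, n = 3), and the log2 fold change was −0.45 (SE 0.07, adjusted p = 3.02e-08, edgeR). It was the largest change in the family among members above 1 CPM, and it passed in each fit that left out 1 library (−0.51 to −0.42). Ccnd1 overlaps LTO1, which had 1381 counts against 13603 and did not pass (0.14, adjusted p = 0.614).

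Ccnd2 (ENSMUSG00000000184; chromosome 6, 127102125 to 127129156) had 254, 314 and 322 CPM in WT and 231, 239 and 228 CPM in KO. All KO libraries were lower than all WT libraries, but WT1 stood much nearer to the KO libraries than WT2 and WT3 did. Its log2 fold change was −0.35 (SE 0.07, adjusted p = 1.26e-05, edgeR), and −0.45 without WT1. Ccnd3 did not pass. It had 106, 107 and 112 CPM in WT and 107, 106 and 107 CPM in KO, overlapping values with a log2 fold change of −0.03 (95% interval −0.17 to 0.12).

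Per length, Ccnd1 made up 44.5, 43.9 and 42.7% of the summed FPKM of the D-type cyclins in WT and 39.7, 38.8 and 42.3% in KO. Ccnd3 made up 17.1, 15.1 and 15.5% in WT and 20.0, 19.7 and 19.3% in KO. Neither gene's shares overlapped between genotypes, whereas those of Ccnd2 did (40.4 ± 1.79% and 40.1 ± 1.55%). The exact permutation p was 0.1 for Ccnd1 and for Ccnd3, the smallest that 3 against 3 libraries can give, and 0.267 after adjustment over the 8 shares compared, so that these shifts could not pass the threshold in this design.

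**Figure D3:**
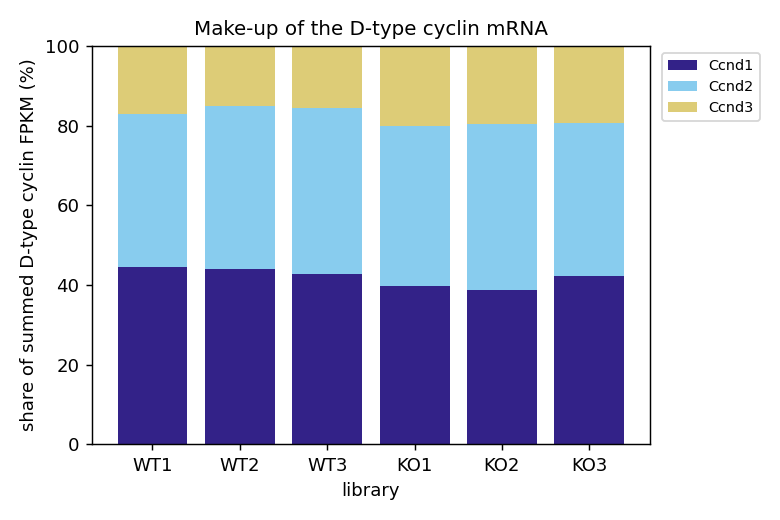
Share of each D-type cyclin in the summed FPKM of Ccnd1, Ccnd2 and Ccnd3, for each library. The top segment, Ccnd3, spans 15.1 to 17.1% in WT and 19.3 to 20.0% in KO, and the bottom segment, Ccnd1, is smaller in every KO library than in every WT library.

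The partner kinases of the D-type cyclins did not pass. Cdk4 had 502, 434 and 446 CPM in WT and 466, 472 and 480 CPM in KO, with WT1 above and the other WT libraries below all KO libraries (log2 fold change 0.04, 95% interval −0.09 to 0.17). Cdk6 had 66.9, 84.3 and 79.1 CPM in WT and 92.4, 81.0 and 87.9 CPM in KO. The groups overlapped, and WT1 was the lowest of the 6. Its log2 fold change of 0.18 (SE 0.08) missed the threshold with an adjusted p of 0.151 (edgeR), and passed at 0.0317 when WT2 was left out. Cdk4 supplied 95.6 to 97.0% of the summed FPKM of both kinases in all libraries. Summed over the G1 cyclins and kinases, FPKM was 224 ± 4.75 in WT and 212 ± 3.40 in KO, without overlap (exact permutation p = 0.1, 0.14 after adjustment over 7 roles).

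The genes that drive S phase and mitosis overlapped between genotypes, except for Ccne1 and the few counts of Ccna1. Ccne1, a partner of Cdk2 at the G1/S transition, had 34.2, 34.5 and 33.8 CPM in WT and 37.9, 35.9 and 37.0 CPM in KO. The KO libraries were all higher, but by little (log2 fold change 0.11, 95% interval −0.07 to 0.30, adjusted p = 0.583, edgeR). Ccne2, the other cyclin E, had a log2 fold change of −0.07 (−0.25 to 0.11), with 37.6 to 41.3 CPM in WT and 35.8 to 40.1 CPM in KO. Cdk2 ranged from 98.4 to 107 CPM in WT and 94.9 to 105 CPM in KO (−0.03, −0.18 to 0.12). Cyclin E and Cdk2 RNA thus showed no difference that these libraries could resolve.

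Ccna2, the cyclin of S phase and early mitosis and the most abundant of its role per length, had 219, 230 and 206 CPM in WT and 211, 206 and 219 CPM in KO (log2 fold change −0.04, 95% interval −0.18 to 0.09). Ccnb1 had 229, 224 and 210 CPM in WT and 222, 225 and 219 CPM in KO (0.01, −0.13 to 0.14). Ccnb2, which ranked next to Cdk4 by FPKM, had 117, 104 and 98.5 CPM in WT and 101, 113 and 101 CPM in KO (−0.02, −0.17 to 0.13). Cdk1, their shared kinase, had 211, 192 and 176 CPM in WT and 179, 191 and 176 CPM in KO (−0.08, −0.22 to 0.06). The KO values of all of them lay within or beside the WT range, and the interval bound farthest from 0 was the −0.22 of Cdk1. Summed FPKM of the mitotic cyclins and Cdk1 was 161 ± 12.6 in WT and 158 ± 7.16 in KO, and that of the G1/S and S genes was 93.7 ± 4.36 and 92.3 ± 0.26 (exact permutation p = 0.7 for each). With WT1 left out the mitotic sum was higher in KO by 3.36 FPKM, and with WT2 left out the G1/S sum was higher by 0.52 FPKM, so neither has a settled direction.

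**Figure D4:**
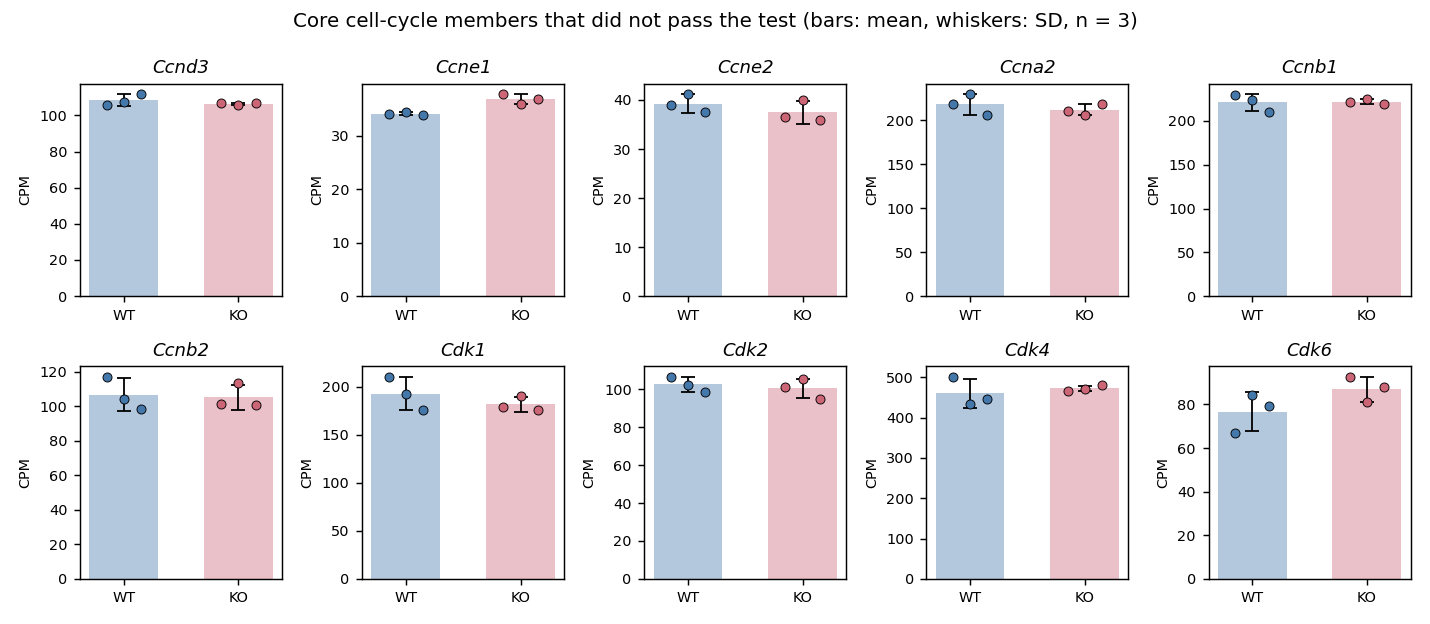
CPM of 10 core cell-cycle members that did not pass the test, in the WT (blue) and KO (red) libraries, with mean (bar) and SD (whisker, n = 3). WT and KO points overlap in each panel but that of Ccne1, where the KO libraries stand at 35.9 to 37.9 CPM and the WT libraries at 33.8 to 34.5 CPM.

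Cyclin H, Cdk7 and the assembly factor Mnat1 form the CDK-activating kinase, which phosphorylates the activation loop of the cell-cycle CDKs and, within TFIIH, the tail of RNA polymerase II. Ccnh (ENSMUSG00000021548; chromosome 13, 85337527 to 85371588) had 40.8, 37.4 and 32.3 CPM in WT and 26.5, 29.8 and 26.2 CPM in KO. The highest KO library was below the lowest WT library, WT3. The log2 fold change was −0.41 (SE 0.10, adjusted p = 0.000407, edgeR), and it passed in all fits that left out 1 library. Cdk7 (51.4 to 56.1 CPM in WT, 49.8 to 56.7 CPM in KO) overlapped between genotypes with a log2 fold change of 0.00 (−0.17 to 0.16). Mnat1 (30.7 ± 3.41 and 29.8 ± 1.02 CPM) overlapped as well. Ccnh shares part of its locus with Rasa1 on the other strand, whose counts summed to 19847 against 3122 for Ccnh. Rasa1, a GTPase-activating protein of Ras, also fell, from 228 ± 14.7 to 177 ± 4.32 CPM (log2 fold change −0.37, SE 0.07, adjusted p = 7.59e-06, edgeR). The library kit named for these samples does not mark strand, so reads of the shared stretch cannot be told apart, and how many reached the Ccnh count was not tested.

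None of the 13 transcriptional cyclins and kinases passed. The most abundant, Ccnl2, a cyclin of splicing speckles, ranged from 134 to 148 CPM in WT and 131 to 145 CPM in KO (log2 fold change −0.05, 95% interval −0.19 to 0.10). Cdk9, the kinase of the elongation factor P-TEFb, had 128, 99.5 and 112 CPM in WT and 109, 112 and 114 CPM in KO, and its cyclins Ccnt1 (0.01) and Ccnt2 (−0.12) also missed the threshold. Cdk12, which pairs with Ccnk and maintains transcription of DNA repair genes, had 79.6, 117 and 109 CPM in WT and 100.2, 98.9 and 101 CPM in KO. WT1 stood well below every other library here. With all libraries the log2 fold change was −0.03 (adjusted p = 0.875), and without WT1 it was −0.17 and passed at 0.0261 (edgeR), so the call for Cdk12 turned on that library. Within the Mediator kinases, Cdk8 made up 55.1, 54.7 and 54.1% of the summed FPKM of Cdk8 and Cdk19 in WT and 52.6, 50.5 and 51.8% in KO, without overlap (exact permutation p = 0.1, the smallest possible, 0.267 adjusted). Ccnl1, Ccnt2 and Cdk8 were lower in every KO library than in any WT library, without passing the test. For Ccnl1 this was a near tie, with 60.92 CPM in WT3 and 60.89 CPM in KO1. The summed level of the role was 157 ± 1.93 FPKM in WT and 154 ± 1.17 FPKM in KO.

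The kinases related to Cdk5, which act at membranes and in differentiated cells with cyclin Y or with partners that are not cyclins, held both a higher and a lower member. Cdk14 (ENSMUSG00000028926; chromosome 5, 4853391 to 5470312), a cyclin Y partner known to phosphorylate the Wnt co-receptor LRP6, had 84.7, 93.9 and 91.2 CPM in WT and 74.7, 69.7 and 72.1 CPM in KO. Every KO library was below every WT library. The log2 fold change was −0.32 (SE 0.08, adjusted p = 0.00102, edgeR). Cdk17 (ENSMUSG00000020015; chromosome 10, 92996737 to 93102933), a PCTAIRE kinase, had 35.2, 35.1 and 29.8 CPM in WT and 42.6, 43.6 and 40.8 CPM in KO. It was the 1 member that rose (log2 fold change 0.35, SE 0.09, adjusted p = 0.00283, edgeR), and without WT3, its lowest library, the log2 fold change was 0.27 and the adjusted p 0.0949. Cdk17 overlaps Elk3, which lies on the other strand with 11735 counts against 3778 and had a log2 fold change of −0.16 (adjusted p = 0.198).

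Cdk16, the most abundant PCTAIRE kinase, had 181, 180 and 193 CPM in WT and 197, 190 and 196 CPM in KO, with a log2 fold change of 0.08 (95% interval −0.06 to 0.21). Cdk5 and Cdk18 overlapped between genotypes, and Ccny, at 102 to 110 CPM in WT and 93.7 to 99.2 CPM in KO, did not overlap but missed the threshold (−0.12, −0.26 to 0.03). Summed FPKM was 85.8 ± 0.41 in WT and 88.1 ± 0.44 in KO (exact permutation p = 0.1, 0.14 adjusted over 7 roles). With CPM in place of FPKM the sum was lower in KO, by 4.06 CPM.

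Of the remaining cyclins, Ccng1 fell. Ccng1 (ENSMUSG00000020326; chromosome 11, 40639379 to 40646138), a known target of p53 that recruits the phosphatase PP2A, had 134, 136 and 117 CPM in WT and 97.8, 108 and 91.2 CPM in KO. All KO libraries were lower than the lowest WT library, WT3. The means were 129 ± 10.3 and 98.9 ± 8.37 CPM (SD, n = 3), with a log2 fold change of −0.38 (SE 0.07, adjusted p = 9.51e-06, edgeR). Its relative Ccng2 had 28.4 to 30.4 CPM in WT and 31.1 to 31.7 CPM in KO and did not pass (0.09, −0.10 to 0.28). Cdkn1a, another p53 target, overlapped between genotypes (33.1 to 37.8 CPM in WT, 37.1 to 39.7 CPM in KO). Ccni, the most abundant of these cyclins, had 165 to 180 CPM in WT and 158 to 170 CPM in KO (−0.09, −0.23 to 0.05). Ccnf, the F-box cyclin of the SCF ubiquitin ligase, had a log2 fold change of 0.01 (−0.14 to 0.17). Summed FPKM of these genes was 108 ± 5.81 in WT and 97.1 ± 2.93 in KO, without overlap (exact permutation p = 0.1, 0.14 adjusted). Most of this difference was that of Ccng1 (36.7 ± 3.09 and 28.0 ± 2.4 FPKM). The median log2 fold change of the 7 genes was 0.01, and the difference in mean log2(FPKM + 1) was −0.0438 (exact permutation p = 0.3).

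CDK inhibitors are the direct antagonists of these kinases. Of 7 genes, 3 rose and none fell, with a median log2 fold change of 0.19. Of all genes 4.97% rose and 4.03% fell, and of the 9378 with at least 10 CPM, 784 rose and 824 fell. Without WT2, 1 of the 7 inhibitors passed, Cdkn1c. Cdkn1c (p57), an imprinted gene of the Cip/Kip family, had 12.6, 11.6 and 12.1 CPM in WT and 21.6, 21.6 and 20.4 CPM in KO, wide of each other (log2 fold change 0.81, SE 0.12, adjusted p = 7.90e-10, edgeR). Cdkn2a, which encodes p16 and p19ARF and whose counts cannot separate these products, had 358, 287 and 328 CPM in WT and 387, 381 and 395 CPM in KO. The KO libraries were all higher, and WT2 was the lowest library (log2 fold change 0.26, SE 0.07, adjusted p = 0.00244), but without WT2 the adjusted p was 0.10. Cdkn2b (p15), its neighbour, had 75.9, 62.5 and 66.2 CPM in WT and 83.9, 80.2 and 79.3 CPM in KO. Its call was close to the threshold (log2 fold change 0.25, adjusted p = 0.0198), was lost with DESeq2 (0.0549) and limma-voom (0.0535), and held in 1 of 6 fits that left out a library, the one without WT1. Without any other library in turn its adjusted p was 0.0624 to 0.221. Cdkn2c (p18) was higher in every KO library but did not pass (0.19, adjusted p = 0.157), and passed at 0.0211 without WT1. Cdkn1b (−0.06) and Cdkn2d (0.00) overlapped between genotypes.

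**Figure D5:**
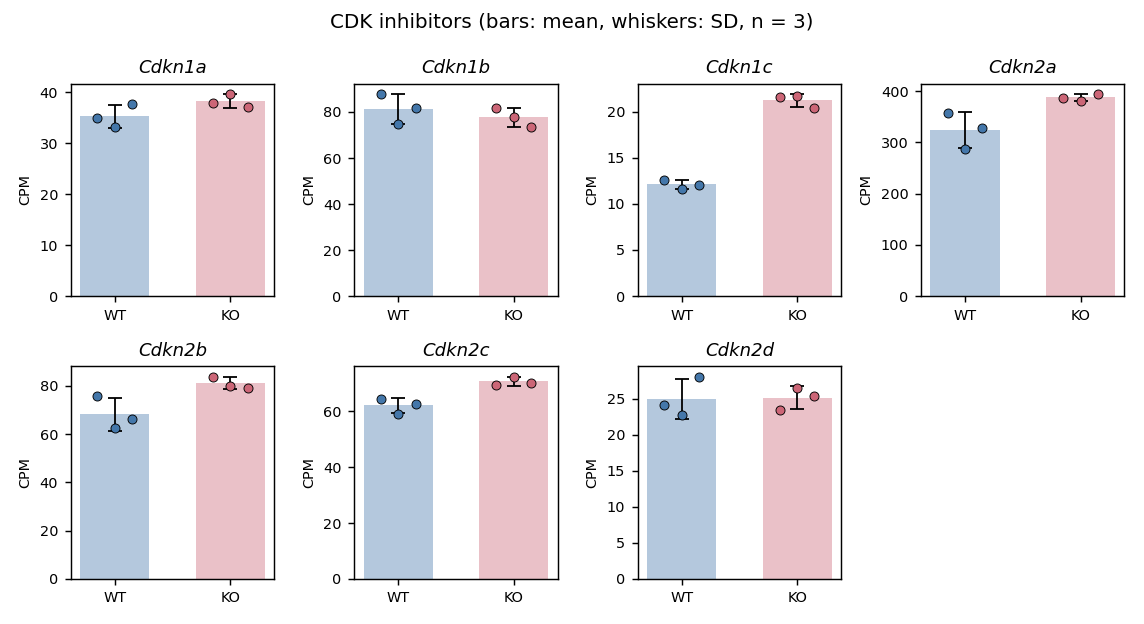
CPM of the 7 CDK inhibitors in the WT (blue) and KO (red) libraries, with mean (bar) and SD (whisker, n = 3). Cdkn1c stands at 11.6 to 12.6 CPM in WT and 20.4 to 21.6 CPM in KO, while Cdkn2a, Cdkn2b and Cdkn2c are higher in KO by less and Cdkn1a, Cdkn1b and Cdkn2d overlap.

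Other regulators of the kinases and the genes that they control were read from lists. Of 114 genes tested over 7 lists, the inhibitors included, 5 rose and 3 fell (7.02%), against 9.00% of all genes and 17.1% of those with at least 10 CPM. Pkmyt1, which places inhibitory phosphates on Cdk1, was the 1 call among 17 activating and inhibiting enzymes and subunits, at 43.0 to 47.2 CPM in WT and 34.7 to 40.5 CPM in KO (log2 fold change −0.27, adjusted p = 0.0377), and it was lost with DESeq2 (0.0843), limma-voom (0.0925), the newer quasi-likelihood fit of edgeR (0.0541), the filterByExpr filter (0.0515) and no gene filter. It was also lost without WT1 (0.0540), KO1 (0.350) or KO2 (0.205). Other genes of this list passed in single fits that left out a library, namely Cables1 (higher) and Ccnyl1 (lower) without WT1, and Spdya (lower) without WT3 or KO2. Btrc, the F-box protein that marks Wee1 and β-catenin for destruction, was the 1 call of this fit among 19 ubiquitin ligase genes. It had 25.2, 27.2 and 32.0 CPM in WT and 33.7, 36.5 and 39.4 CPM in KO (0.37, adjusted p = 0.00256), and its adjusted p was 0.0752 without KO3. Cdc20, the activator of the anaphase-promoting complex, missed the threshold here (0.20, adjusted p = 0.0581) but passed with DESeq2 (0.0418), limma-voom (0.0436) and the filterByExpr filter (0.0427). Without WT1, Btrc, Cdc20, Fzr1 and Anapc11 were higher and Anapc1 was lower. None of the 12 reported partners of the transcriptional CDKs passed in edgeR, DESeq2 or limma-voom, with 3 at an unadjusted p below 0.05. Without WT1, Hexim1 of these was higher and Ell, Aff1 and Aff4 were lower, without WT2, Med12 and Med13l were higher, and without WT3, Med13l was higher. Over all 7 lists, leaving out WT1 gave 14 higher and 15 lower genes of 114. That fit also called more of all 26898 genes, 1644 higher and 1620 lower, against 1337 and 1083 with all libraries. The count of higher genes over the lists was 3 without KO3, and that of lower genes was 5 without WT3 and 1 without KO1 or KO3. Over all genes the counts were 1015 higher without KO3, and 985, 667 and 645 lower without WT3, KO1 and KO3.

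None of 19 E2F and pocket protein genes passed in edgeR, DESeq2 or limma-voom, with 3 at an unadjusted p below 0.05. None of 20 G1/S genes passed in edgeR, with 4 at an unadjusted p below 0.05 and 1 call, Rrm1, by DESeq2 and by limma-voom. Without WT1, 3 E2F and pocket protein genes (E2f6, Rbl2 and Lin54) were lower, and of the G1/S genes 2 were higher (Mcm7 and Uhrf1) and 1 lower (Rrm1). Rrm1 was also lower without WT3 (adjusted p = 0.0495). Summed FPKM of the G1/S genes ranged from 720 to 747 in WT and 734 to 751 in KO. Among 20 G2/M genes, whose sum was 637 to 655 FPKM in WT and 637 to 639 FPKM in KO, Plk1 rose and Kif11 and Hmmr fell. Plk1, the kinase of mitotic entry, had 113, 109 and 118 CPM in WT and 138, 137 and 146 CPM in KO (log2 fold change 0.30, SE 0.07, adjusted p = 0.000872), and passed without each library in turn. Kif11, the motor of spindle bipolarity, went from 189 ± 3.55 to 160 ± 6.44 CPM (−0.24, adjusted p = 0.0120), and its adjusted p was 0.153 without KO1 and 0.171 without KO3. Hmmr, a spindle protein, went from 65.2 ± 2.94 to 53.2 ± 1.94 CPM (−0.29, adjusted p = 0.00726), and its adjusted p was 0.0856 without KO2 and 0.0946 without KO3. Without WT1, 2 G2/M genes were higher (Plk1 and Aurka) and 6 lower (Kif11, Hmmr, Mki67, Bub1b, Cenpe and Cenpf). The counts without WT1 in these lists stand beside 1644 higher and 1620 lower of all 26898 genes in that fit. With all libraries, 1337 and 1083 of all genes were called. The median log2 fold change with all libraries was −0.04 for the G2/M genes and 0.00 for the G1/S genes.

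WT libraries varied more than KO libraries. Among the 37 members with at least 10 CPM, the coefficient of variation was larger in WT for 27, with medians of 5.45% in WT and 3.44% in KO. The same held for 75.0% of all 9378 genes at that level (medians 7.63 and 4.16%), and WT1 was the library farthest from the WT median for 4664 of them. Among the 37 members the farthest library was WT1 for 15, WT2 for 8 and WT3 for 14. It was widest for Cdk12 (19.4% in WT, 1.08% in KO). Ccna2, Ccnc, Ccnd3, Ccne2, Cdk4 and Cdk10 each overlap a gene on the other strand with over 10% of their own counts, none of which passed. Of 54 annotated pseudogenes of the members, 14 had counts, the largest at 2.59% of its parent gene, and none passed the test in edgeR.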

How the data were processed

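RNA was extracted from 3 WT and 3 KO MEF libraries, sequenced as 150 bp read pairs and, per the study's methods, aligned with Hisat2 (2.0.5) and counted with featureCounts (1.5.0-p3). The authors deposited raw counts per gene and FPKM, which follow from these counts and the gene length. The submitters' notes name GRCm38, but the deposited gene coordinates are those of GRCm39, and GRCm39 positions are given for genes. Members, roles and gene lists were chosen with earlier results of these data known.

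Genes with a count in at least 1 library (26898) were tested on counts with edgeR (4.0.16; quasi-likelihood, TMM scaling, R 4.3.3), KO against WT, without covariates, with Benjamini-Hochberg adjustment over all genes. The estimated prior degrees of freedom were infinite, so SE and p rest on the shared dispersion trend. Adjusted p of the 6 called members over the alternatives that keep all 6 libraries reached at most 0.0226. CPM values were scaled by TMM. Intervals are 1.96 SE to either side. The 2-fold rule required a log2 fold change above 1 in size. Role sums and shares (FPKM) were compared by exact two-sided permutation tests. DESeq2 (1.42.0) and limma-voom (limma 3.58.1) were alternatives. Text names the core D, E, A and B cyclins and their kinases, members that passed, the most abundant of each role, members at up to 3 counts, the CDK inhibitors, Mcm8 and up to 4 called genes per regulator list, and genes named beyond these were chosen after their values were seen. A listed regulator is not reported here and enters no count of the lists. Depth was 12722979 to 21022755 counts per library, and the limit of 3 counts covers counting error only.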

Additional observations from a re-analysis of the deposited data

How the results depend on the processing

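The 6 members passed under all 7 alternatives run on them (DESeq2, limma-voom, RLE scaling, a filter by edgeR's filterByExpr, no gene filter, a replicate block and edgeR's newer quasi-likelihood fit, the last chosen after seeing the data because the older fit planned as an alternative was the one in use). Leaving out 1 library gave 0 to 2 higher members (0 without WT3, 2 without WT2, where Cdk6 passed) and 5 to 6 lower members (6 without WT1, where Cdk12 passed), and 0 members passed the adjusted p and 2-fold rule in any fit. Regulators and targets gave 3 to 14 higher and 1 to 15 lower genes, the highest counts in each direction being without WT1 (14 and 15). Their count of higher genes was 3 without KO3, and that of lower genes 5 without WT3 and 1 without KO1 or KO3. Over all 26898 genes, leaving out 1 library gave 945 to 1644 higher and 645 to 1620 lower genes, again the most without WT1. Without 1 library the log2 fold change of Cdk4 ranged from −0.0040 to 0.10, of Ccnb1 from −0.030 to 0.032, of Ccnb2 from −0.0768 to 0.0541 and of Cdk2 from −0.063 to 0.0166. The difference in share (KO minus WT, percentage points) then ranged from −1.31 to 0.53 for Ccnd2, −0.34 to 1.19 for Ccnb1, −0.63 to 0.0333 for Cdk4 and −2.03 to 1.56 for Cdk12. The summed mitotic level ranged from −9.27 to 3.36 FPKM and the G1/S level from −3.76 to 0.52 FPKM. As a mean of log2(FPKM + 1) the G1/S difference was 0.0145, and with CPM the sum over the kinases related to Cdk5 was lower in KO (−4.06), in both cases opposite to the FPKM sum, and the cause was not tested. The replicate numbers did not pair the libraries (correlations of deviations −0.03 to 0.04), and a fit with the replicate block called 1330 higher and 1035 lower genes against 1337 and 1083, with 6 members. The block added Med13l (higher) and Spdya (lower) to the regulator calls. Members below 1 CPM are limited by depth.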
